A study of Rattus norvegicus with 83 samples.

Results

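Amitrole at 50 mg/kg body weight per day (Ami50) was compared directly with methimazole at 16 mg/kg body weight per day (MMI16) in rat libraries labelled pup day 16 (PD16). The comparison used every library of the table named for PD16 and the upper dose of either compound, which gave 12 Ami50 and 10 MMI16 libraries of the 83 in the series. The offspring came from Sprague-Dawley dams gavaged daily with either compound in corn oil from gestational day 7, and the label gives testis as the tissue. Dosing ended on pup day 22 per the labels' protocols and on pup day 16 per the series text, with birth expected on gestational day 23. The assay, bulk RNA barcoding and sequencing, counts reads near the 3′ end of polyadenylated transcripts, and values below are CPM, counts per 1000000 counts of the library. Libraries from amitrole at 25 mg/kg (Ami25, 11 libraries), methimazole at 8 mg/kg (MMI8, 10 libraries) and corn oil alone (vehicle, 10 libraries) at PD16, and those labelled gestational day 21 (GD21, 6 libraries per group), were used where named. The labels do not tie libraries to litters, so p-values measure the spread between these libraries.

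Both compounds block thyroid peroxidase, the enzyme of the thyroid gland that iodinates thyroglobulin, and so lower the supply of thyroid hormone to dam and offspring. Amitrole, an aminotriazole, also inactivates catalase, which breaks down hydrogen peroxide. The doses of the compounds are not matched, and compound, dose and anything else that separates the 2 groups cannot be told apart. In bulk RNA, fewer cells of a type and less RNA per cell cannot be told apart either.

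The labelled tissue did not match its markers. In the 22 libraries together, 5 Sertoli cell markers had 26 counts, 4 Leydig cell markers had 6 and 7 germ cell markers had 21. The 6 markers of the adrenal cortex summed to between 21551 and 58863 CPM in Ami50 libraries and between 7610 and 24514 CPM in MMI16 libraries. Those of the adrenal medulla summed to between 1000 and 1568 CPM in Ami50 libraries and between 686 and 1320 CPM in MMI16 libraries. Total counts ran from 202270 to 1186973 per library, with medians of 457019.5 in Ami50 and 487567.5 in MMI16 libraries, so 1 count is about 2.12 CPM at the median depth.

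The stage labels also sat apart from a developmental marker. Embryonic globin chains, which are known to give way to adult chains before birth, made up 14.8% ± 2.51 of globin counts in vehicle libraries labelled PD16 (SD, n = 10) and 0.161% ± 0.0501 in vehicle libraries labelled GD21 (SD, n = 6). The values below therefore go with the libraries as labelled, and whether the labels are right was not tested.

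Other library features moved with the groups. Eif2s3y, a Y-linked gene, was under 10 CPM in 8 of 12 Ami50 libraries and in 0 of 10 MMI16 libraries. Those 8 are all the Ami50 libraries numbered above 20. Alb, the liver gene for albumin, reached 200 CPM in 3 Ami50 libraries and in 1 MMI16 library. The part of these features in the results below was not tested, and values without such libraries are given beside the named genes whose call they change.

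Of 4906 genes tested, 2331 (47.5%) differed between Ami50 and MMI16 at an adjusted p under 0.05, with 1107 (22.6%) higher and 1224 (24.9%) lower in Ami50 (edgeR quasi-likelihood test, Benjamini-Hochberg adjustment over all genes tested). The change was at least 2-fold for 550 of them (11.2%), with 352 (7.17%) higher and 198 (4.04%) lower. The CPM ranges of the groups did not overlap for 308 genes (6.28%), 160 of them higher (3.26%) and 148 lower (3.02%). The shares of all genes tested that were higher (22.6%) and lower (24.9%) are the background for the list counts below. The median log2 fold change of all genes tested was -0.04. With libraries scaled to their total count alone, that median shifted by -0.12 and 35.5% of the 2473 calls were higher in Ami50, against 47.5% of calls with the scaling used here. Within library numbers 1 to 20, 21 to 40 and 57 to 90 taken alone, which the files do not describe as batches, 1061, 1304 and 964 genes were called. Genes named in the text come from a panel, the largest changes and each gene list. Of the 120 called genes that this choice gave, 23, 19 and 40 were not called within these numbers, 13 were not called without the libraries low in Eif2s3y, and 16 were not without those and the Alb-rich ones. Along the first principal component of the PD16 libraries, which held 35.48% of the variance, Ami50 libraries lay between 23.98 and 30.05 and MMI16 libraries between -16.47 and -8.94, with vehicle libraries between -33.76 and -24.56.

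**Figure D1:**
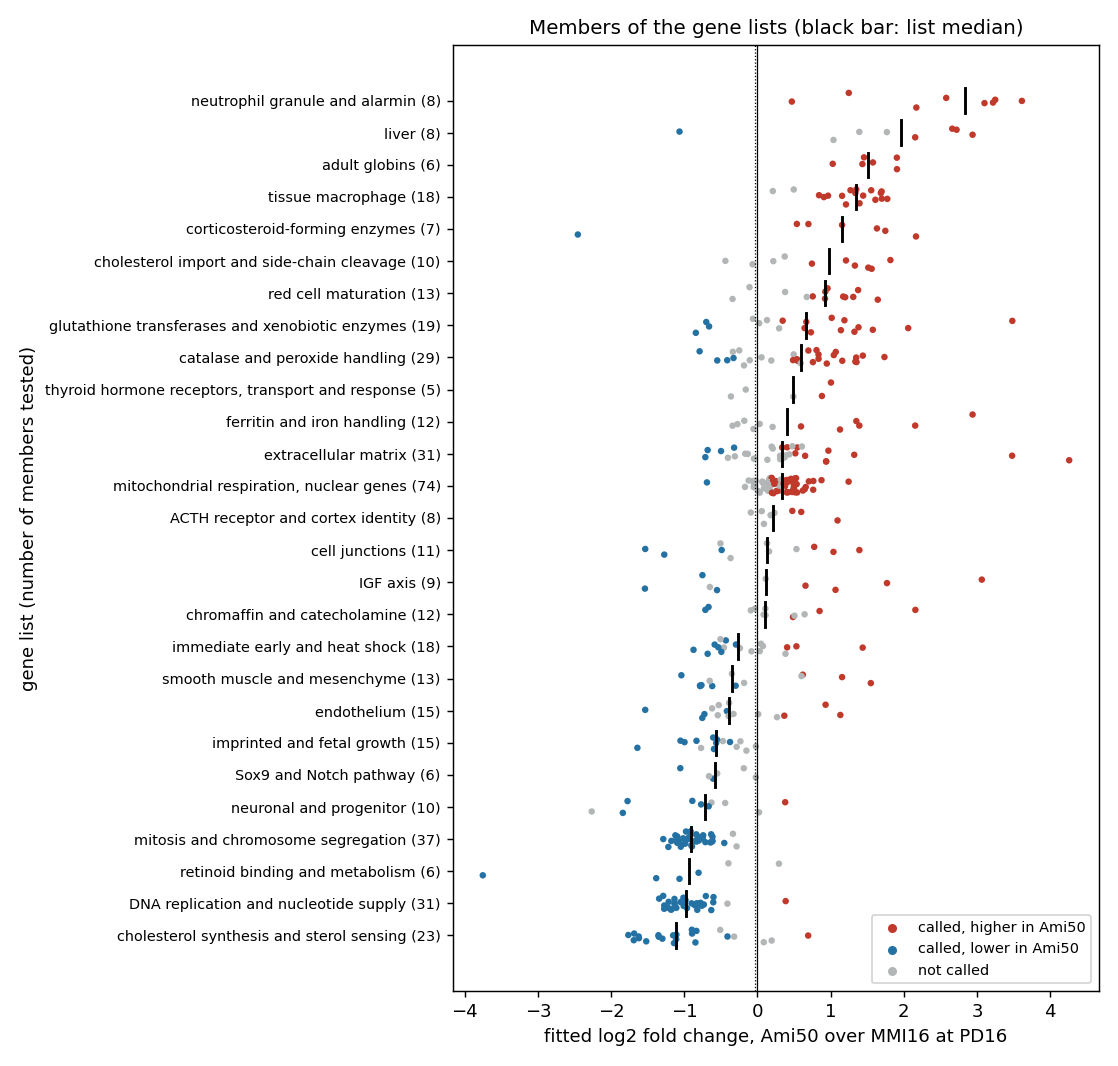
Fitted log2 fold change of Ami50 over MMI16 at PD16 (horizontal axis) for the tested members of each gene list with at least 5 of them (vertical axis, number tested in brackets); red and blue points passed the test, grey points did not, black bars are list medians and the dotted line is the median of all genes. Neutrophil, globin, macrophage and steroid-forming genes lie to the right, and cholesterol synthesis, DNA replication and mitosis genes to the left.

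The 2 largest falls among genes with at least 20 CPM in MMI16 were in embryonic globin genes. Erythroid cells of the early embryo use zeta, epsilon and gamma-type globin chains, and red cells made later use the adult alpha and beta chains. All 3 embryonic globin genes tested fell in Ami50 relative to MMI16, with a list median log2 fold change of -5.67, and all 6 adult globin genes rose, with a median of 1.52. Both directions were also found at the lower doses, where 3 of 3 embryonic genes were lower and 6 of 6 adult genes higher in Ami25 than in MMI8.

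Hbz, which encodes the embryonic zeta chain, had a lowest, median and highest level of 0, 8.41 and 25.2 CPM in Ami50 libraries, against 356, 930.5 and 1469 CPM in MMI16 libraries. No Ami50 library came near the lowest MMI16 library, and the log2 fold change was -6.36 (SE 0.26, adjusted p = 1.37e-26). Hbe1, the epsilon chain gene, had 27.5, 78.4 and 229 CPM in Ami50 libraries, against 3265, 5893 and 7176 CPM in MMI16 libraries, a log2 fold change of -5.67 (with SE 0.23 and adjusted p = 6.72e-27). Hbg1 fell as well, at 2.01, 9.33 and 24.5 CPM in Ami50 libraries, against 19.8, 77.0 and 209 CPM in MMI16 libraries, and these ranges overlapped.

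Among adult chains, Hbb-b1 of the beta cluster had 2899, 3807 and 6252 CPM in Ami50 libraries, against 733, 1183 and 1672 CPM in MMI16 libraries. All 12 Ami50 libraries were above all 10 MMI16 libraries, and the log2 fold change was 1.91 (SE 0.15, adjusted p = 2.5e-16). Hba-a2 of the alpha cluster had 21492, 27374 and 39284 CPM in Ami50 libraries, against 8721, 11295 and 16406 CPM in MMI16 libraries (log2 fold change 1.46, SE 0.12). Alpha and beta globin genes have near-identical copies, and how the authors' counting divided reads among copies is not given in the sources used here. Embryonic chains made up 0.142% ± 0.0798 of all globin counts in Ami50 libraries (SD, n = 12) and 16.4% ± 4.28 in MMI16 libraries (SD, n = 10). MMI16 libraries lay with the vehicle libraries of their own label, and Ami50 libraries with the vehicle libraries labelled GD21.

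**Figure D2:**
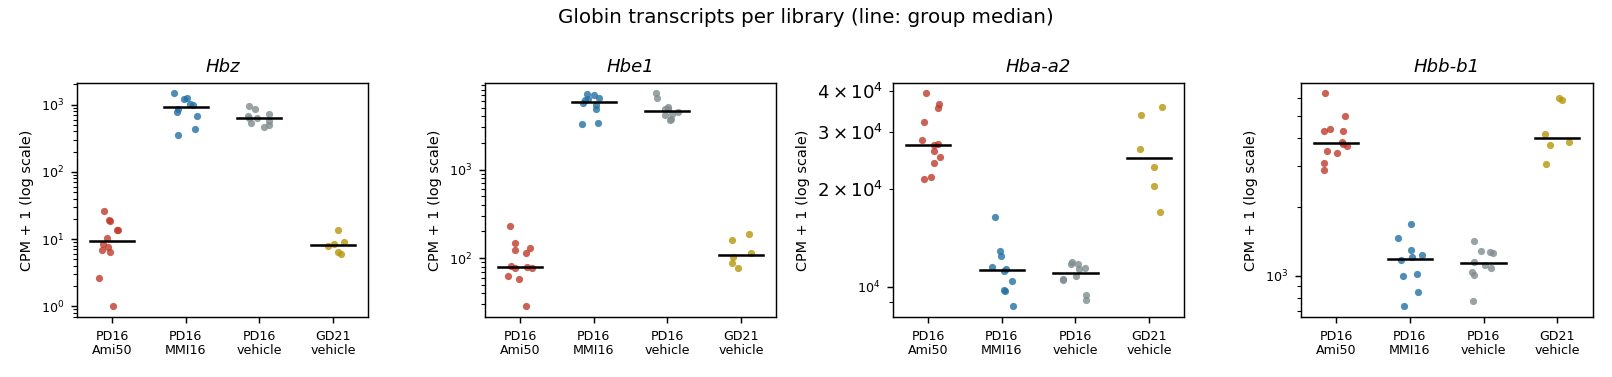
CPM plus 1 on a log scale (vertical axis) of embryonic Hbz and Hbe1 and adult Hba-a2 and Hbb-b1 in each library of 4 groups (horizontal axis); points are libraries and lines are group medians. PD16 Ami50 and GD21 vehicle libraries are low for the embryonic genes and high for the adult ones, and PD16 MMI16 and PD16 vehicle libraries are the reverse.

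The upstream sequence of an embryonic and an adult gene of each globin cluster is shown because the pairs moved in opposite directions. Each run is the 120 bases before the gene start in RefSeq (build GRCr8), read in the direction of the gene, with CCAAT on either strand in capitals. Hbz lies at chr10:15849758-15849877 (minus strand), Hba-a2 at chr10:15829139-15829258 (minus strand), Hbe1 at chr1:167696281-167696400 (minus strand) and Hbb-b1 at chr1:167643521-167643640 (minus strand).
Hbz: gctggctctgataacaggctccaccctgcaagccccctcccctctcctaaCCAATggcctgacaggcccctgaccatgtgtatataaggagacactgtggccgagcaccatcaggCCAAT
Hba-a2: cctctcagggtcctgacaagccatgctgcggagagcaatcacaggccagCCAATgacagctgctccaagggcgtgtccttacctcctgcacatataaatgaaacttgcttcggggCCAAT
Hbe1: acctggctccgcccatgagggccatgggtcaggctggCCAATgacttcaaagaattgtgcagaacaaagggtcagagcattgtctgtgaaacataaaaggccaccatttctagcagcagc
Hbb-b1: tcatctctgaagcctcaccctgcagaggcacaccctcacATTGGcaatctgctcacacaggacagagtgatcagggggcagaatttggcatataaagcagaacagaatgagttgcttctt
CCAAT began 70 bases before the start in Hbz, 71 in Hba-a2 and 83 in Hbe1. In Hbb-b1 it lay 81 bases before the start, on the opposite strand. Hbz and Hba-a2 held another match 5 bases before the start. Within 250 bases before the start, 34.3% of the 27457 promoters in the table hold these letters on either strand. The match is in both members of each pair, so it did not separate the genes that fell from those that rose.

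Red cell genes beyond the globins rose in part. Of 13 tested, 9 were higher in Ami50 and 0 lower, with a median log2 fold change of 0.93. Alas2, the erythroid enzyme that starts heme synthesis, had 263, 336 and 526.4 CPM in Ami50 libraries, against 79.1, 133 and 164 CPM in MMI16 libraries, with no overlap (log2 fold change 1.64, SE 0.14, adjusted p = 1.28e-14). Slc4a1, the red cell anion exchanger, rose with a log2 fold change of 1.38 (with SE 0.24 and adjusted p = 3.65e-06), while Bpgm did not pass the test (log2 fold change -0.11). Between 4 Ami50 and 4 MMI16 libraries numbered 1 to 20 alone, 2 of the 13 passed the test.

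Steroid-forming genes of the adrenal cortex were higher in Ami50. The cortex makes corticosteroids by importing cholesterol into mitochondria with Star, cutting its side chain with Cyp11a1 and its electron donors, and then modifying the product with Hsd3b1, Cyp21a1 and the Cyp11b enzymes. Of 10 tested genes of cholesterol import and side-chain cleavage, 6 rose and 0 fell. Of 7 genes listed with the corticosteroid-forming enzymes, 6 rose and 1 fell. That list includes the aldo-keto reductases Akr1b8 and Akr1c14.

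Star had 741, 993.5 and 1126 CPM in Ami50 libraries, against 169, 363 and 588 CPM in MMI16 libraries. Every Ami50 library was above every MMI16 library, with a log2 fold change of 1.56 (with SE 0.18 and adjusted p = 2.42e-10). Cyp11a1 had 12202, 20731 and 27339 CPM in Ami50 libraries, against 2713, 7846 and 11437 CPM in MMI16 libraries, which is a log2 fold change of 1.52 with SE 0.15 (adjusted p = 2.5e-12). Its electron donor Fdxr rose by a log2 fold change of 1.33 and the mitochondrial outer membrane protein Tspo by 1.82 (adjusted p = 7.86e-14 and 1.7e-22), both without overlap. Npc2 and Stard3, which move cholesterol out of endosomes, did not pass the test, with log2 fold changes of -0.07 (95% interval -0.29 to 0.16) and 0.22 (95% interval -0.01 to 0.45).

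Cyp21a1, the steroid 21-hydroxylase, had 4958, 10088 and 13176 CPM in Ami50 libraries, against 1860, 3726 and 4566 CPM in MMI16 libraries. The ranges did not overlap, and the log2 fold change was 1.63 (SE 0.21, adjusted p = 7.4e-09). Within library numbers 57 to 90, which hold 4 Ami50 and 2 MMI16 libraries, the estimates for Star and Cyp21a1 were 1.20 and 1.38 and neither passed the test. Hsd3b1 was higher by a log2 fold change of 0.54 (with SE 0.10 and adjusted p = 1.47e-05), and the estimate was 0.18 and not called against the 4 Ami50 libraries with Eif2s3y at 10 CPM or more.

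The calls of the last enzymes of the pathway changed when libraries were left out. Cyp11b1, which makes corticosterone, had 3417, 8867 and 17542 CPM in Ami50 libraries, against 2329, 7013 and 9284 CPM in MMI16 libraries, with 6 Ami50 libraries above all MMI16 libraries (log2 fold change 0.70, SE 0.26, adjusted p = 0.0251). Cyp11b2, the aldosterone synthase, had 57.9, 204.5 and 5585 CPM in Ami50 libraries, against 37.9, 92.1 and 1516 CPM in MMI16 libraries, with wide overlap (log2 fold change 2.17, SE 0.91, adjusted p = 0.0446). Without the 8 Ami50 libraries low in Eif2s3y, the estimates turned to -0.18 for Cyp11b1 and -1.59 for Cyp11b2 and neither passed the test. Cyp11b2 was not called without the Alb-rich libraries either, at 1.93. Leaving out any 1 of 12 single libraries ended the Cyp11b2 call, with the smallest estimate, 1.49, without Ami50 library 37. Any 1 of 4 did so for Cyp11b1. Without the libraries low in Eif2s3y, 2 of the 7 genes listed with the corticosteroid-forming enzymes were called higher and 1 lower. With libraries scaled to total count alone, 4 were higher and 1 lower. The Cyp11b genes resemble each other in sequence, which makes their separation in 3′ counts uncertain.

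Akr1c14, an aldo-keto reductase of the hydroxysteroid dehydrogenase family, was the member that fell. It had 9.99, 68.4 and 314 CPM in Ami50 libraries, against 313, 539 and 913 CPM in MMI16 libraries, and 11 of 12 Ami50 libraries were below all MMI16 libraries (log2 fold change -2.45, SE 0.33, adjusted p = 2.22e-08). Akr1c3, a related reductase, had 1.07, 10.7 and 165 CPM in Ami50 libraries, against 106, 199 and 433 CPM in MMI16 libraries, a log2 fold change of -3.18 (SE 0.45). Akr1c14 was not called within library numbers 57 to 90, and its estimates ran from -4.36 to -1.32 over the settings run. Akr1c3 kept its call in all of them, with estimates from -6.35 to -2.28. Members of this family have close copies.

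**Figure D3:**
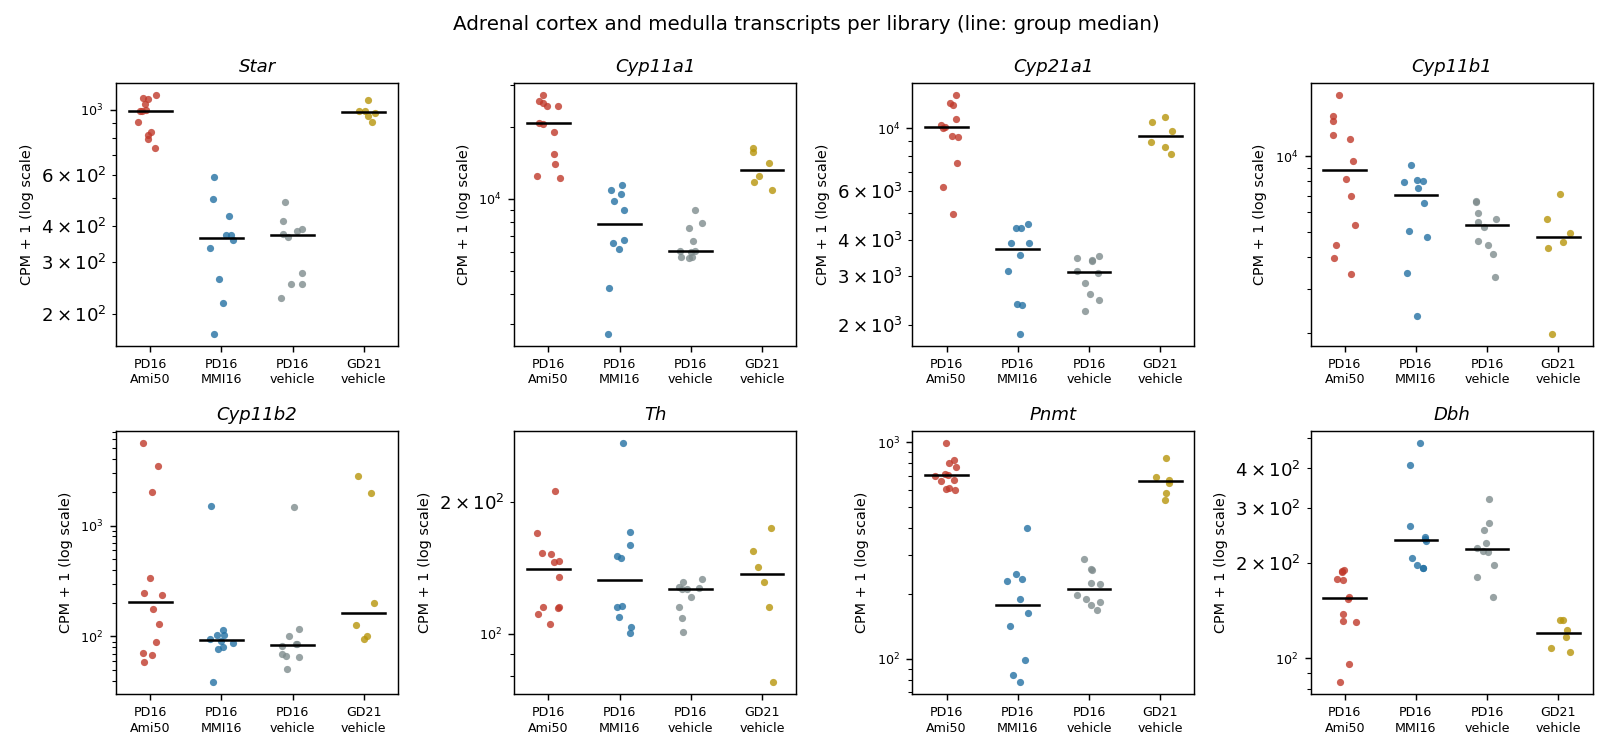
CPM plus 1 on a log scale (vertical axis) of cortex genes Star, Cyp11a1, Cyp21a1, Cyp11b1 and Cyp11b2 and medulla genes Th, Pnmt and Dbh in each library of 4 groups (horizontal axis); points are libraries and lines are group medians. Ami50 libraries lie above all MMI16 libraries for Star, Cyp11a1, Cyp21a1 and Pnmt and below them for Dbh, and the groups overlap for Cyp11b1, Cyp11b2 and Th.

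Of 8 tested genes for the corticotropin receptor system and cortex identity, 3 rose and 0 fell, against 22.6% higher and 24.9% lower among all genes tested. Mrap, which carries the corticotropin receptor to the cell surface, was higher by a log2 fold change of 0.60 (with SE 0.14 and adjusted p = 4.02e-04), and Prkar1a, a regulatory subunit of protein kinase A, by 0.48 (SE 0.10, adjusted p = 1.32e-04). The Mrap estimate was 0.29 without the Ami50 libraries low in Eif2s3y and 0.47 without the Alb-rich ones as well, and 0.45 and 0.27 within library numbers 1 to 20 and 57 to 90, none of them called. Prkar1a was not called within those numbers either, at 0.43 and 0.39. The receptor itself, Mc2r, was too low for the test, at 4.99, 15.5 and 36.5 CPM in Ami50 libraries, against 2.03, 8.85 and 19.8 CPM in MMI16 libraries. Agtr1a, an angiotensin receptor of the zona glomerulosa, did not pass the test (log2 fold change 0.09, 95% interval -0.32 to 0.50).

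In the chromaffin cells of the medulla, tyrosine becomes dopa, dopamine, noradrenaline and adrenaline through Th, Ddc, Dbh and Pnmt in turn. Of 12 chromaffin and catecholamine genes tested, 3 rose and 2 fell, against 22.6% higher and 24.9% lower among all genes. The list median log2 fold change was 0.11, and the steps from Th to Pnmt did not all move one way. In Ami25 against MMI8, 5 of the 12 rose and 0 fell. There Th was called higher (log2 fold change 0.45, adjusted p = 0.0385) and Dbh was not called (-0.43). Th had 104, 139 and 211 CPM in Ami50 libraries, against 99.4, 131 and 272 CPM in MMI16 libraries, and did not pass the test (log2 fold change 0.11, 95% interval -0.25 to 0.47). Ddc was higher (log2 fold change 0.85, SE 0.15, adjusted p = 1.89e-06). Dbh had 83.1, 154 and 190 CPM in Ami50 libraries, against 192, 236 and 482 CPM in MMI16 libraries, so all Ami50 libraries were below the lowest MMI16 library (log2 fold change -0.71, SE 0.19, adjusted p = 0.00173). Pnmt, which makes adrenaline, had 602.5, 702.5 and 994.5 CPM in Ami50 libraries, against 77.0, 175 and 400.5 CPM in MMI16 libraries. All 12 Ami50 libraries were higher, with a log2 fold change of 2.16 (with SE 0.18 and adjusted p = 1.98e-14). The Dbh estimate was -0.69 and no longer called without the Ami50 libraries low in Eif2s3y, and within library numbers 1 to 20 and 57 to 90 it was -0.42 and -0.32, neither of them called. Chgb, a granin of the secretory granule, fell (log2 fold change -0.67, adjusted p = 0.00337). Chga did not pass the test at 0.64 (adjusted p = 0.0625), but was called higher in Ami25 than in MMI8, at 0.97. Without the Ami50 libraries low in Eif2s3y, Chgb was at -0.51 and not called, and Chga at 1.13 and called. Without the Alb-rich libraries as well, the estimates were -0.38, not called, for Chgb and 1.72, called, for Chga, and within library numbers 57 to 90 that of Chgb was -0.28 and not called.

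Neuronal and progenitor genes were lower in part, with 5 of 10 tested falling and 1 rising, against 24.9% lower and 22.6% higher among all genes. Nes, an intermediate filament of neural progenitors, had 0, 4.79 and 19.9 CPM in Ami50 libraries, against 12.2, 21.5 and 44.3 CPM in MMI16 libraries, and 11 of 12 Ami50 libraries lay below all MMI16 libraries (log2 fold change -1.78, SE 0.31, adjusted p = 2.04e-06). Nefm, a neurofilament subunit, fell by 1.84 on the log2 scale (adjusted p = 1e-06), and Gap43, a growth cone protein, did not pass the test (log2 fold change -0.63, adjusted p = 0.0515). Gap43 was called without the Alb-rich libraries, at -1.09.

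Cholesterol synthesis genes were lower in Ami50. Cells make cholesterol from acetyl-CoA through the mevalonate pathway, whose genes are switched on by Srebf2 when membrane sterol is low. Of 23 tested genes of synthesis and sterol sensing, 18 fell, 13 of them at least 2-fold, and 1, Dhcr7, rose. The list median was -1.11 at these doses and -1.49 at the lower doses, where 19 fell and 1 rose.

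Fdps, the farnesyl diphosphate synthase, had 228, 351 and 833 CPM in Ami50 libraries, against 530, 1662 and 2056 CPM in MMI16 libraries. Of the 12 Ami50 libraries, 11 were below all MMI16 libraries (log2 fold change -1.69, SE 0.25, adjusted p = 2.02e-07). Hmgcs1, which makes the precursor of mevalonate, had 38.6, 57.2 and 161 CPM in Ami50 libraries, against 104, 278 and 351 CPM in MMI16 libraries (log2 fold change -1.62, SE 0.26, adjusted p = 6.32e-07). Mvk and Tm7sf2, a kinase and a sterol reductase of the pathway, fell by 1.11 and 1.76 on the log2 scale. Srebf2 itself did not pass the test (log2 fold change -0.51, adjusted p = 0.0804). It was called lower by DESeq2, with total-count scaling and without MMI16 library 75. It was also called lower in Ami25 than in MMI8 (log2 fold change -1.08, adjusted p = 8.2e-05). Against vehicle, its log2 fold changes were -2.70 for Ami50 and -2.19 for MMI16. Within library numbers 21 to 40, 6 of the 23 genes fell and 1 rose.

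Genes of DNA replication and of cell division were lower almost throughout both lists. Of 31 replication and nucleotide supply genes tested, 29 fell and 1, Tyms, rose, and of 37 mitosis and chromosome segregation genes, 35 fell and 0 rose. The list medians were -0.98 and -0.91, and at the lower doses 29 of 31 and 37 of 37 fell. The replicative helicase gene Mcm7 had 46.2, 91.7 and 114 CPM in Ami50 libraries, against 138, 203 and 259 CPM in MMI16 libraries, with no overlap (log2 fold change -1.11, SE 0.11, adjusted p = 3.21e-12). Gmnn, which keeps replication origins from being licensed again, had 42.3, 69.0 and 105 CPM in Ami50 libraries, against 127, 184 and 238 CPM in MMI16 libraries (log2 fold change -1.27, SE 0.13, adjusted p = 2.72e-12). Every Ami50 library was below every MMI16 library for both.

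Cks1b, a subunit of cyclin-dependent kinases, had 171, 189 and 229 CPM in Ami50 libraries, against 287, 403 and 555 CPM in MMI16 libraries, a log2 fold change of -0.98 (with SE 0.09 and adjusted p = 3.72e-14). Cdk1, the kinase that starts mitosis, had 97.8, 130 and 160 CPM in Ami50 libraries, against 237, 260 and 293 CPM in MMI16 libraries (log2 fold change -0.94, SE 0.09, adjusted p = 6.35e-13). Neither gene overlapped between the groups. Cdc20, which activates the anaphase-promoting complex, fell by 1.10 on the log2 scale (adjusted p = 5.3e-14), with 11 of 12 Ami50 libraries below all MMI16 libraries. The proliferation marker Mki67 had 20.4, 37.9 and 54.2 CPM in Ami50 libraries, against 32.5, 53.5 and 198 CPM in MMI16 libraries, and fell by 0.63 (adjusted p = 0.00357). The Mki67 estimate was -0.54 without the libraries rich in Alb or low in Eif2s3y, and -0.36 and -0.16 within library numbers 21 to 40 and 57 to 90, none of them called. Kif11 and Aurka were the 2 mitosis genes that did not pass the test, at log2 fold changes of -0.33 and -0.28, and Aurka was called without the libraries low in Eif2s3y, at -0.63, and without the Alb-rich ones, at -0.33.

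The upstream sequences of the 3 mitosis genes with the smallest adjusted p are shown because mitosis genes fell together. TTTGAA is the core of the cell cycle homology region, an element known from promoters of such genes, and is in capitals on either strand. The 120 bases before the start are given 5′ to 3′ from RefSeq build GRCr8. Cks1b is at chr2:177135334-177135453 (minus strand), Cdc20 at chr5:137255800-137255919 (minus strand) and Cdk1 at chr20:19265173-19265292 (plus strand).
Cks1b: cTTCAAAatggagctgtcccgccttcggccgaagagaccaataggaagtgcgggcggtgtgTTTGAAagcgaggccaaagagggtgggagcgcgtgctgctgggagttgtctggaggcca
Cdc20: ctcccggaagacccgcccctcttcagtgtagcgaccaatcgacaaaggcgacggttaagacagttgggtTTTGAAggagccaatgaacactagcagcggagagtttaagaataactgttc
Cdk1: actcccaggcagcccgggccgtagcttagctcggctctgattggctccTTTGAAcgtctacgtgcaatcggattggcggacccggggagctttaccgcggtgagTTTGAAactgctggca
A match on the strand of the gene began 59 bases before the start in Cks1b, 51 in Cdc20 and 72 in Cdk1. Within 250 bases before the start, the letters were in 16 of the 33 mitosis promoters found in the table (48.5%), in 2 of 26 replication promoters (7.7%) and in 16.0% of all 27457 promoters. A match of these letters is not a bound site.

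**Figure D4:**
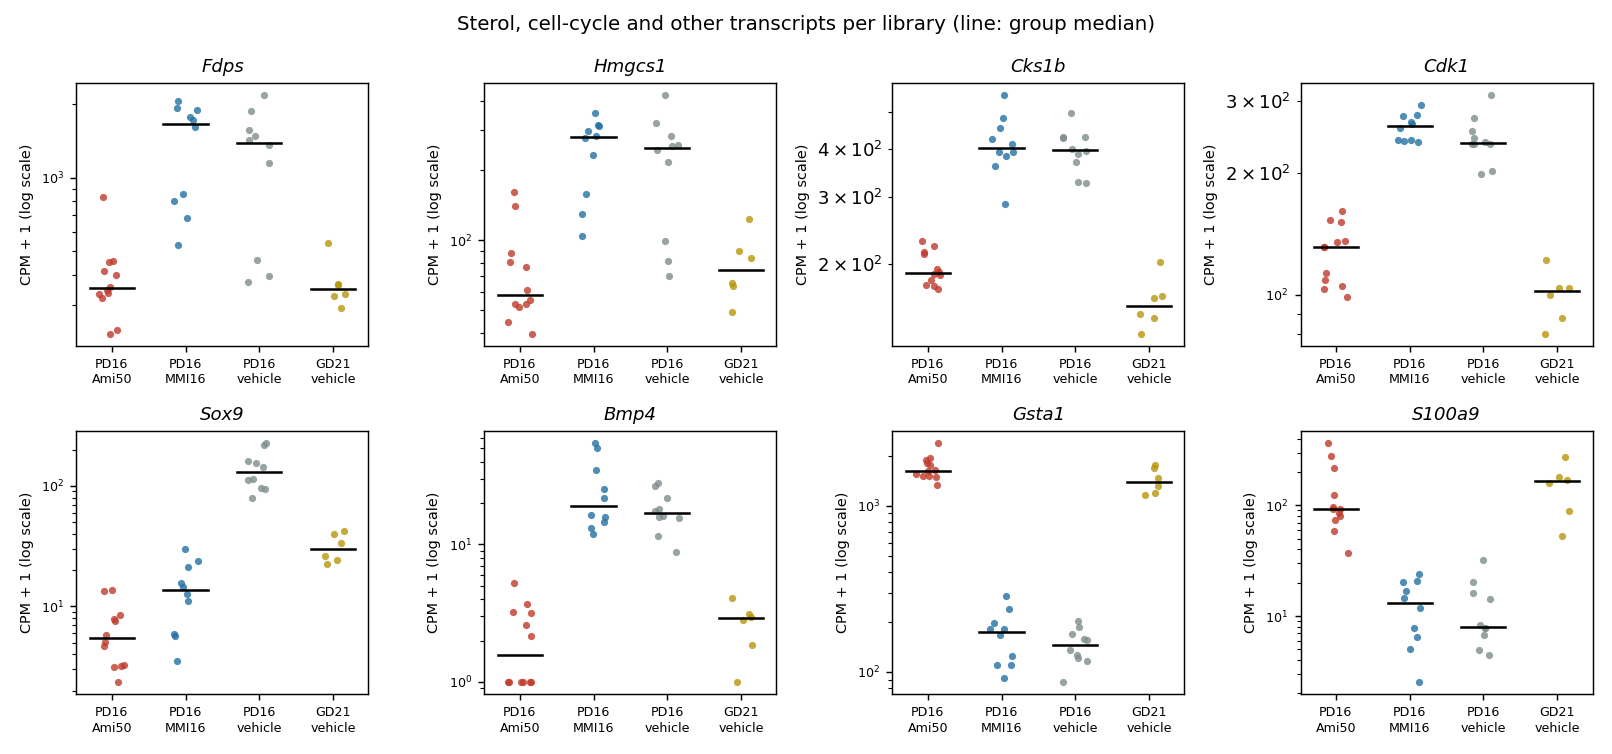
CPM plus 1 on a log scale (vertical axis) of sterol genes Fdps and Hmgcs1, cell cycle genes Cks1b and Cdk1, developmental genes Sox9 and Bmp4, and Gsta1 and S100a9 in each library of 4 groups (horizontal axis); points are libraries and lines are group medians. The first 6 genes are lower in Ami50 than in MMI16 libraries and Gsta1 and S100a9 are higher, and Sox9 is higher in PD16 vehicle libraries than in both.

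Peroxide handling genes, listed because amitrole acts on catalase, rose more often than they fell. Of 29 tested, 17 rose and 4 fell. Cat, the catalase gene, had 134, 186 and 228 CPM in Ami50 libraries, against 89.0, 118 and 141.5 CPM in MMI16 libraries, and 10 of 12 Ami50 libraries exceeded all MMI16 libraries (log2 fold change 0.76, SE 0.12, adjusted p = 2.88e-07). The mitochondrial peroxiredoxin Prdx3 had 1561, 1942 and 2148 CPM in Ami50 libraries, against 837, 943 and 1116 CPM in MMI16 libraries, with no overlap (log2 fold change 1.16, SE 0.08, adjusted p = 1.05e-17). Gpx1, a glutathione peroxidase, rose by 0.95 (adjusted p = 1.27e-10), and Prdx1, Prdx4, Gpx7 and Gpx8 were the members that fell. Txn1 did not pass the test (log2 fold change -0.11, 95% interval -0.34 to 0.13).

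Glutathione transferase and other xenobiotic genes also rose more often, 12 of 19 against 3 that fell. Gsta1, an alpha-class transferase with close copies, had 1340, 1626 and 2392 CPM in Ami50 libraries, against 90.5, 173 and 284.5 CPM in MMI16 libraries. The groups were far apart, with a log2 fold change of 3.48 (with SE 0.16 and adjusted p = 3.12e-25). Fmo1, a flavin monooxygenase, had 61.9, 135 and 166.5 CPM in Ami50 libraries, against 20.2, 28.9 and 67.1 CPM in MMI16 libraries (log2 fold change 2.06, SE 0.18, adjusted p = 8.81e-15). Gstp1, a pi-class transferase, had a log2 fold change of 0.13 (95% interval -0.08 to 0.34) and did not pass the test, but was called at 0.35 without the Ami50 libraries low in Eif2s3y.

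Nuclear genes of mitochondrial respiration rose by small amounts, 49 of 74 with 1 that fell and a list median of 0.33. With libraries scaled to total count alone, 36 rose and 4 fell. Sdha, a subunit of succinate dehydrogenase, rose most clearly, at 418, 729 and 805 CPM in Ami50 libraries, against 168.5, 326 and 447 CPM in MMI16 libraries (log2 fold change 1.25, SE 0.10, adjusted p = 1.29e-16). Within library numbers 1 to 20, 21 to 40 and 57 to 90, 18, 39 and 11 of the 74 rose.

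Genes of immune cells were higher in Ami50 than in MMI16 libraries. Of 18 tissue macrophage genes tested, 16 rose, and of 8 neutrophil granule and alarmin genes, all 8 rose, with medians of 1.34 and 2.84. Ctsd, a lysosomal protease, had 993, 1557 and 1951 CPM in Ami50 libraries, against 243.5, 538 and 646 CPM in MMI16 libraries, with no overlap (log2 fold change 1.69, SE 0.10, adjusted p = 4.27e-21). Mrc1, the mannose receptor, had 21.7, 39.4 and 67.4 CPM in Ami50 libraries, against 7.22, 13.1 and 16.8 CPM in MMI16 libraries, also without overlap (log2 fold change 1.61, SE 0.20, adjusted p = 6.86e-10). Its mean in PD16 vehicle libraries was 86.6 CPM, above both. The 6 macrophage markers, Mrc1 among them, summed to medians of 119 CPM in Ami50, 53.6 in MMI16 and 127 in PD16 vehicle libraries. The whole macrophage list, which includes lysosomal proteases such as Ctsd, summed to medians of 3625, 1506 and 1283 CPM in these groups. S100a9, an alarmin of neutrophils, had 36.2, 91.8 and 367 CPM in Ami50 libraries, against 1.54, 12.2 and 22.8 CPM in MMI16 libraries (log2 fold change 3.61, SE 0.45, adjusted p = 2.89e-09). Its partner S100a8 and the cathelicidin gene Camp rose by 3.25 and 3.22 on the log2 scale.

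Ferritin and iron genes rose in 6 of 12 cases and fell in 0, against 22.6% higher and 24.9% lower among all genes. Fth1, the heavy chain of ferritin, had 8308, 10224 and 13741 CPM in Ami50 libraries, against 4005, 4515 and 5177 CPM in MMI16 libraries, with no overlap (log2 fold change 1.35, SE 0.12, adjusted p = 2.46e-14). Its light-chain partner Ftl1 did not pass the test (log2 fold change -0.05, 95% interval -0.27 to 0.17).

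Heat shock and immediate early genes fell in 7 of 18 cases and rose in 3, against 24.9% lower and 22.6% higher among all genes. Hsp90aa1, a cytosolic chaperone, had 331.5, 406 and 532 CPM in Ami50 libraries, against 645, 762 and 1365 CPM in MMI16 libraries, and Hsp90ab1 was lower too, both without overlap (log2 fold changes -0.87 and -0.58, adjusted p = 2.3e-08 and 1.61e-05). Hsp90ab1 was at -0.10 without the libraries rich in Alb or low in Eif2s3y, and at -0.31 and -0.41 within library numbers 21 to 40 and 57 to 90, none of them called. Hspe1, a mitochondrial co-chaperone, rose by 0.53 (adjusted p = 1.39e-05), and was not called within library numbers 1 to 20 and 57 to 90, at 0.46 and 0.41.

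Of 15 endothelial genes 3 rose and 4 fell, of 13 smooth muscle and mesenchyme genes 3 rose and 6 fell, and of 11 cell junction genes 3 rose and 3 fell, shares called that lie near the 47.5% of all genes for endothelium and junctions. Cldn5, a tight junction protein of vessels, had 1.36, 12.6 and 30.0 CPM in Ami50 libraries, against 20.7, 44.8 and 79.1 CPM in MMI16 libraries (log2 fold change -1.53, SE 0.26, adjusted p = 1.3e-06). Tagln, an actin-binding protein of smooth muscle, had 43.4, 56.7 and 114 CPM in Ami50 libraries, against 6.74, 19.9 and 36.2 CPM in MMI16 libraries, with no overlap (log2 fold change 1.55, SE 0.25, adjusted p = 4.78e-07). Of 3 fat genes tested, Cidea, a lipid droplet protein, rose, at 16.1, 33.8 and 47.5 CPM in Ami50 libraries, against 0, 2.30 and 10.2 CPM in MMI16 libraries (log2 fold change 3.09, SE 0.36, adjusted p = 1.37e-11).

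Liver genes also appeared in some libraries. Of 8 tested, 4 rose and 1 fell, against 22.6% higher and 24.9% lower among all genes. Alb, Afp and Apoa1 did not pass the test. Alb had 8.82, 22.3 and 2686 CPM in Ami50 libraries, against 9.89, 17.4 and 507 CPM in MMI16 libraries. Without the Ami50 libraries low in Eif2s3y, Alb and Apoa1 were called, at 2.81 and 2.44. Of the 4 Ami50 libraries then left, library 19 had 2686 CPM of Alb and the others had between 9.99 and 25.6 CPM. The 10 liver markers summed to between 77.4 and 9780 CPM in Ami50 libraries and between 57.2 and 1484 CPM in MMI16 libraries. When libraries at 200 CPM or more of Alb were left out, with 9 then in each group, the list median was 0.29, against 1.96 with them.

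Of 31 extracellular matrix genes, 11 were higher, 4 lower and 16 not called, against 22.6% higher and 24.9% lower among all genes. The share called in either direction is near the 47.5% of all genes. At the lower doses, 19 of the 31 were higher and 1 lower. The list median was 0.34 at the upper doses and 0.63 at the lower doses. Dpt, the gene for the matrix protein dermatopontin, had 13.9, 52.5 and 157 CPM in Ami50 libraries, against 0, 1.86 and 8.12 CPM in MMI16 libraries (log2 fold change 4.26, SE 0.38, adjusted p = 2.34e-16). Mfap5, of elastic microfibrils, had 39.5, 115 and 231 CPM in Ami50 libraries, against 3.85, 10.0 and 22.4 CPM in MMI16 libraries (log2 fold change 3.48, SE 0.25, adjusted p = 9.06e-18). Neither gene overlapped between the groups. Col1a1, the main fibrillar collagen chain, did not pass the test (log2 fold change 0.32, 95% interval -0.15 to 0.78).

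Growth and developmental genes were lower in the main. Of 15 imprinted and fetal growth genes tested, 9 fell and 0 rose, against 24.9% lower and 22.6% higher among all genes. At the lower doses, 4 of the 15 fell and 1 rose, against 24.2% lower and 24.4% higher among all genes. Igf2, the fetal growth factor, had 49.0, 82.2 and 221 CPM in Ami50 libraries, against 93.5, 159 and 687 CPM in MMI16 libraries, with 9 of 12 Ami50 libraries below all MMI16 libraries (log2 fold change -0.996, SE 0.24, adjusted p = 4.54e-04). Peg3, an imprinted zinc finger gene, fell by 0.83 on the log2 scale (adjusted p = 1.74e-04), and H19, the RNA beside Igf2, did not pass the test (log2 fold change -0.47), but was called at -0.95 without the Alb-rich libraries. Within library numbers 57 to 90, 1 of the 15 fell, and Igf2 and Peg3 were at -0.17 and -0.25, neither called. In Ami25 against MMI8, Igf2 was at -0.47 and not called. Igf1, the postnatal growth factor, went the other way, at 168, 458 and 1125 CPM in Ami50 libraries, against 65.0, 168.5 and 277 CPM in MMI16 libraries (log2 fold change 1.77, SE 0.29, adjusted p = 1.24e-06), and its estimate within library numbers 57 to 90 was 0.96 and not called. Binding protein genes of these factors split, with Igfbp6 and Igfbp2 higher by 3.07 and 1.07 and Igfbp4 lower by a log2 fold change of -1.54.

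Retinoid carriers were lower in Ami50, with 4 of 6 falling and 0 rising, against 24.9% lower and 22.6% higher among all genes. Crabp1, a cytosolic carrier of retinoic acid, had 0, 2.50 and 11.0 CPM in Ami50 libraries, against 16.3, 34.4 and 101 CPM in MMI16 libraries (log2 fold change -3.75, SE 0.41, adjusted p = 4.11e-12). Crabp2, its paralog, had 34.2, 65.7 and 108 CPM in Ami50 libraries, against 112, 189 and 300.4 CPM in MMI16 libraries (log2 fold change -1.38, SE 0.16, adjusted p = 4.62e-11). Both were without overlap. Bmp4, a secreted signal of the TGF-beta family, had 0, 0.577 and 4.27 CPM in Ami50 libraries, against 10.8, 18.1 and 53.9 CPM in MMI16 libraries, a log2 fold change of -3.55 (with SE 0.39 and adjusted p = 5.7e-13). Its Ami50 values rest on a few counts per library.

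Among the other large changes, Uts2, the vasoactive peptide urotensin, had 7.31, 20.2 and 125 CPM in Ami50 libraries, against 0, 1.61 and 4.88 CPM in MMI16 libraries (log2 fold change 4.39, SE 0.51, adjusted p = 1.38e-12). Qrfpr, the receptor of a hypothalamic peptide, Hhex, a homeobox factor, and Mia, a secreted protein known from cartilage, rose by 3.55, 3.51 and 3.47 on the log2 scale, each without overlap. Cd83, a surface protein of activated immune cells, Tead2, a transcription factor of the Hippo pathway, and Elovl6, a fatty acid elongase, fell by 2.56, 2.29 and 2.00, also without overlap.

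Thyroid hormone genes were mostly too low to test. Thra and Klf9 had medians of 7.13 and 6.57 CPM in Ami50 libraries and of 7.46 and 4.10 CPM in MMI16 libraries. Of 5 tested genes of the thyroid list, Ucp2, a mitochondrial uncoupling protein, and Cpt1a, which carries fatty acids into mitochondria, rose by 1.00 and 0.88 on the log2 scale (adjusted p = 6.04e-08 and 0.00204). Cpt1a had 66.1, 112 and 171.5 CPM in Ami50 libraries, against 22.8, 63.3 and 108 CPM in MMI16 libraries. Against vehicle, which averaged 390 CPM, both groups were lower, with log2 fold changes of -1.71 for Ami50 and -2.59 for MMI16. Without the Ami50 libraries low in Eif2s3y, the estimate for Cpt1a against MMI16 was 0.49 and not called. In Ami25 against MMI8, Cpt1a was at 0.18 and not called (adjusted p = 0.531), while 3 of the 5 genes were called higher and 0 lower.

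Some genes were lower than in vehicle under both compounds. Sox9, a transcription factor of Sertoli and progenitor cells, averaged 5.55 ± 3.85 CPM in Ami50 libraries and 13.4 ± 8.54 CPM in MMI16 libraries, against 139 CPM in vehicle libraries. Its log2 fold changes against vehicle were -4.60 for Ami50 and -3.55 for MMI16, comparisons that share the vehicle libraries. Between the compounds it fell by 1.05 (SE 0.42, adjusted p = 0.0269), and leaving out 1 of 4 single libraries (MMI16 12 or 32, Ami50 17 or 20) ended that call, with log2 fold changes between -0.96 and -0.93. It was not called either without the Ami50 libraries low in Eif2s3y (-1.30) or without the Alb-rich ones as well (-1.50), nor within library numbers 1 to 20 (-0.58) and 57 to 90 (-0.68). The Notch ligand Jag1 had log2 fold changes of -3.95 for Ami50 and -3.40 for MMI16 against vehicle and did not pass the test between them (-0.55, 95% interval -1.16 to 0.04), but was called at -1.33 without the libraries rich in Alb or low in Eif2s3y.

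Against vehicle, 419 genes (8.54%) were called at least 2-fold lower in Ami50 and 270 (5.5%) in MMI16, comparisons with shared vehicle libraries. Ami50 gave 2627 calls in all (53.5%) and MMI16 398 (8.11%). The rule for genes not called between the compounds named 6 that were lower than vehicle by at least 2-fold in both groups. These had the narrowest intervals between the compounds. Vdac1, the main channel of the mitochondrial outer membrane, averaged 543 ± 46.0 CPM in Ami50 libraries and 531 ± 73.0 CPM in MMI16 libraries (SD, n = 12 and 10), against 2218 CPM in vehicle libraries. Its log2 fold change between the compounds was 0.17, with a 95% interval of 0.0026 to 0.34 and an adjusted p of 0.0882. Psmb4, a proteasome subunit, averaged 424 ± 44.9 CPM in Ami50 libraries and 528 ± 73.6 CPM in MMI16 libraries, against 1360 CPM in vehicle libraries (log2 fold change -0.18, 95% interval -0.33 to -0.02, adjusted p = 0.055). The intervals of Rbx1, Otub1, Morf4l2 and Smim7 lay between -0.32 and 0.23, and a 2-fold difference lay outside all 6 intervals. The 6 genes were picked as uncalled with narrow intervals in this same comparison, so this does not test whether the compounds act alike. With libraries scaled to total count alone, Psmb4 and Smim7 were called lower in Ami50, and Psmb4 also when any 1 of 8 single libraries, the globin genes or the libraries of the other PD16 groups were left out.

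The same compounds at their lower doses, in libraries that share no sample with these, gave 2386 calls (48.6%) for Ami25 against MMI8, with 1199 higher (24.4%) and 1187 lower (24.2%). The change was at least 2-fold for 684 (13.9%), with 425 higher (8.66%) and 259 lower (5.28%). Of the 352 genes higher by at least 2-fold in Ami50, 337 (95.7%) were called higher in Ami25 than in MMI8, and 0 were called lower. Of the 198 genes lower by at least 2-fold, 167 (84.3%) were called lower at the lower doses and 0 higher. Counting the 2-fold rule at both doses, 285 genes were higher at both, which is 81.0% of the 352 and 67.1% of the 425 at the lower doses. Likewise 119 were lower at both, 60.1% of the 198 and 45.9% of the 259. The globin difference was also present at the lower doses, with embryonic chains at 0.18% of globin counts in Ami25 and 17.1% in MMI8 libraries. Compound and anything else that separates the amitrole from the methimazole libraries at both doses cannot be told apart.

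**Figure D5:**
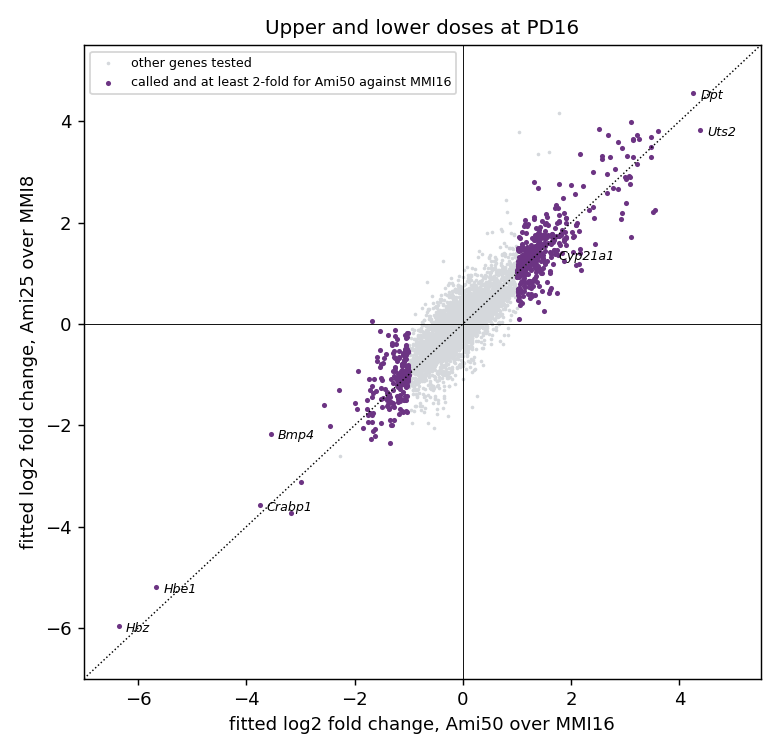
Fitted log2 fold change of Ami50 over MMI16 (horizontal axis) and of Ami25 over MMI8 (vertical axis) at PD16 for the 4906 genes tested; purple points are the 550 genes called and changed at least 2-fold at the upper doses, and the dotted line marks equal change. Hbz and Hbe1 lie far down and Uts2 and Dpt far up on both axes.

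At GD21 the same pair of groups, with 6 libraries each, gave 0 calls among 6236 genes in edgeR, 451 genes at an unadjusted p under 0.05 and 3 calls in DESeq2. The difference between the stages was tested itself over all 83 libraries, and the log2 fold change of Ami50 over MMI16 at PD16 differed from that at GD21 for 1547 of 6287 genes (24.6%). Cyp21a1, for one, was higher at PD16 by a log2 fold change of 1.63 and had an estimate of -0.23 at GD21, a difference of 1.85 (adjusted p = 1.75e-06).

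The position of the vehicle libraries was set beside the 550 genes changed at least 2-fold. The mean of the GD21 vehicle libraries, on the scale of log2 of CPM plus 1, was nearer to the Ami50 mean than to the MMI16 mean for 487 of the 550 (88.5%), and for 70.0% of all 4906 genes tested. The mean of the PD16 vehicle libraries was nearer to MMI16 for 534 of the 550 (97.1%) and for 73.0% of all. Both held for 471 genes. For the other 63 genes nearer to MMI16 at GD21, the PD16 vehicle mean was nearer to MMI16 too.

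Of these 63 genes, 3 had a mean of at least 20 CPM in a group and no overlap between Ami50 and MMI16 libraries, and were named after their values were seen. Lpar4, a receptor for lysophosphatidic acid, averaged 7.97 ± 3.41 CPM in Ami50 libraries and 29.6 ± 7.12 CPM in MMI16 libraries, while vehicle means were 25.9 CPM at GD21 and 54.2 CPM at PD16. Fscn1, the actin-bundling protein fascin, averaged 29.8 ± 10.9 CPM in Ami50 libraries and 115 ± 39.0 CPM in MMI16 libraries, while vehicle means were 183 CPM at GD21 and 791 CPM at PD16. Ctsb, a lysosomal protease, averaged 1154 ± 280.1 CPM in Ami50 libraries and 547 ± 130.5 CPM in MMI16 libraries, while vehicle means were 739 CPM at GD21 and 449.7 CPM at PD16.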

How the data were processed

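Counts of 17483 gene symbols in 83 rat libraries were read as the authors deposited them, in 1 table of whole-number counts per gene. Reads were mapped with BWA 0.7.4.4 to build rn6, per the submitters' processing notes, while for the counting step, its strand setting and any removal of duplicate molecules the method is not given in the sources used here. Reads from overlapping genes and close copies can therefore be divided wrongly. Columns were matched to the labels by name.

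Genes were tested with edgeR 4.0.16 (R 4.3.3, quasi-likelihood F test, robust, TMM scaling, filterByExpr with a minimum count of 10) on all 53 PD16 libraries in 5 groups, which left 4906 genes. Genes with an adjusted p under 0.05 are called (Benjamini-Hochberg, over all genes tested). The difference between stages was an interaction term over all 83 libraries. SE and 95% intervals are of the fitted log2 fold change. CPM is the count per 1000000 counts of the library, and counting error limits values near 1 count. DESeq2 1.42.0, other scalings and filters, and subsets of libraries were tried as alternatives. The scripts were tested on simulated data. No 2 of the 22 libraries were alike within sampling noise (lowest chi-square per degree of freedom 1.57 over 231 pairs).

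The members, gene lists and tests were chosen with earlier results of these data known. The text names a panel of genes, the 10 largest called rises and falls with at least 20 CPM, up to 4 called and 2 uncalled genes per list, and 6 genes without a call that were lower than vehicle in both groups; a few genes that this rule names are not reported here. Promoters were matched by symbol to RefSeq (GRCr8), which lists 15578 of the 17483 symbols.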

Additional observations from a re-analysis of the deposited data

Results flagged for a closer look

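Dixon's criterion was applied to 47 genes, each in the 10 MMI16 libraries, and to no other group. For 13 of the 47 genes, 1 library stood apart from the others. Chance alone meets the criterion in about 1 in 20 independent checks, but these checks share the same libraries and are not independent. Replicate 10, which has the lowest total of the 22 libraries (202270 counts), was highest for 8 genes, with Th at 271.9 CPM, Pnmt at 400.5, Igf2 at 687.2, H19 at 583.4, Dlk1 at 593.3, Mki67 at 197.8, Srebf2 at 128.5 and Col1a1 at 1582 CPM. Replicate 9 was highest for S100a8 (15.16 CPM) and Alb (507.2 CPM), replicate 11 for Cyp11b2 (1516 CPM), replicate 31 for Qrfpr (14.64 CPM) and replicate 30 for Cd83 (55.85 CPM). The Ami50 group, with 12 libraries, was not checked, because the critical values used here covered groups of at most 10 libraries.

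The log2 fold change of Ami50 over MMI16 differed between PD16 and GD21, by the interaction test in edgeR, for 20 of 32 panel genes tested, against 24.6% of all genes, and 19 of the 20 are given here. The differences, PD16 minus GD21, were -6.453 for Hbe1, -7.226 for Hbz, -2.712 for Hbg1 and 1.703 for Hbb-b1 among globins. For adrenal genes they were 1.515 for Star, 1.34 for Cyp11a1, 1.854 for Cyp21a1, 1.168 for Mc2r, 2.051 for Pnmt, 1.301 for Chga and -0.7312 for Dbh. For sterol genes they were -1.537 for Hmgcs1, -1.559 for Fdps and -0.799 for Srebf2. For the others they were 0.6848 for Cat, 1.041 for Gpx3, -1.49 for Sox9, 3.244 for S100a8 and -1.25 for Eif2s3y.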

How the results depend on the processing

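The count of 2331 calls ranged from 2267 to 2380 when single libraries were left out, with 1033 to 1176 higher and 1152 to 1316 lower, and the 2-fold count from 527 to 583, with 330 to 387 higher and 187 to 237 lower. Of 2315 calls by DESeq2, 2281 were shared with edgeR. Within library numbers 1 to 20 there were 1061 calls (640 higher, 421 lower), within 21 to 40 there were 1304 (706 and 598) and within 57 to 90 there were 964 (504 and 460), each from fewer libraries. A test against a 1.5-fold change gave 598 (374 and 224). The 2-fold count was 1167 with no filter on low counts (753 and 414), and that of Ami25 against MMI8 was 1296. Genes at least 2-fold lower numbered 301 with total-count scaling, 126 with only the 22 libraries fitted and 372 without the 8 libraries low in Eif2s3y. Without those and the Alb-rich libraries, a choice made after seeing the data, the 2-fold count was 932 (551 and 381). Of 120 called genes given by the rule for names, 62 kept their call and sign under every setting run that gave a value, and the sign of 4 turned at least once. Of the 61 others it gave, 33 were called under at least 1 setting and the sign of 41 turned. Within library numbers 1 to 20, Cyp11b2 had a log2 fold change of -2.46 and Eif2s3y of 0.13, and within 57 to 90 Marcksl1 had 0.10. Without the libraries low in Eif2s3y, Cyp11b1 had -0.18, Cyp11b2 -1.59 and Eif2s3y 0.066, and without the Alb-rich ones as well these were -0.052, -1.59 and 0.16. Without MMI16 replicate 9, the estimates were 3.75 for Alb, 3.22 for Apoa1, 2.51 for Afp and 1.20 for Chga. The Serpina1 estimate was 1.24 and not called without Ami50 replicate 19, and that of Col1a1 was 0.64 without MMI16 replicate 10. The cause of these shifts was not tested. No paired analysis was possible because library numbers are unique to each group. At these depths, genes near 1 count, such as Bmp4 in Ami50 libraries, have folds that counting error limits.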

Other observations

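Among the 63 genes whose vehicle means at both stages lay nearer to MMI16, Slc6a8, a creatine transporter, had the largest change with at least 20 CPM in a group. It averaged 44.0 ± 20.2 CPM in Ami50 libraries and 14.0 ± 10.2 CPM in MMI16 libraries (SD, n = 12 and 10), with overlap, and vehicle means were 18.5 CPM at GD21 and 8.75 CPM at PD16. Its log2 fold change was 1.90 (SE 0.29). D2hgdh, a mitochondrial dehydrogenase of hydroxyglutarate, averaged 30.1 ± 10.5 CPM in Ami50 libraries and 11.0 ± 5.77 CPM in MMI16 libraries, while vehicle means were 16.3 CPM at GD21 and 15.2 CPM at PD16. Both genes were picked after their values were seen.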
